A study of Mus musculus with 89 samples.

Results

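Mouse models of Down syndrome with and without a block of extra genes from chromosome 17 were set against each other (Mmu17 is mouse chromosome 17, and Mmu16 is mouse chromosome 16). For every probe set of the array, the quantity examined was the trisomy effect in Ts65Dn minus the trisomy effect in Ts66Yah. A trisomy effect is the mean log2 signal of trisomic embryos minus that of euploid embryos of the same colony, and the quantity is called the difference of effects here. It was computed for all 22206 probe sets from 88 of the 89 arrays of the series. The array labelled EupTs66Yah replicate 16 was left out, because its log2 values were compressed, with a standard deviation (SD) of 1.13, while those of the remaining EupTs66Yah arrays had SDs of 2.23 to 2.39.

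The tissue was the forebrain at embryonic day 18.5, with 1 embryo on each Clariom S array. Ts65Dn embryos (n = 23) carry a freely segregating extra chromosome made of a distal part of Mmu16 and a proximal part of Mmu17, and EupTs65Dn embryos (n = 18) are their littermates without it. Ts66Yah embryos (n = 24) carry an extra chromosome derived from that of Ts65Dn and freed of the Mmu17 part, and EupTs66Yah embryos (n = 23 used) are their euploid littermates. Each colony gave 6 litters, and both sexes were present in all 4 groups. Both colonies were kept on a mixed B6 and C3H background, but they were founded separately. The Ts66Yah line went through founder females from another laboratory and in vitro fertilisation, and the Ts65Dn chromosome came through the mother. Which parent carried the Ts66Yah chromosome is not stated in the labels. Colony origin therefore varies along with the Mmu17 genes, as does the general level of the arrays, and neither can be told apart from them in the difference of effects. Littermates share a dam, and the p-values measure the spread between embryos.

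An extra chromosome raises the copy number of each gene it carries, and transcript levels commonly follow gene copy number. Many genes of distal Mmu16 are orthologous to genes of human chromosome 21, among them App, Sod1 and Dyrk1a. The proximal part of Mmu17 has no such orthologues, so its extra copy in Ts65Dn has no counterpart in Down syndrome. Ts66Yah was made to remove that copy. The comparison asks what the Mmu17 genes add to the Mmu16 dosage that both models share.

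Array levels differed by colony, with mean log2 values of 5.26 to 5.33 in the Ts65Dn colony and 6.35 to 6.41 in the Ts66Yah colony, so effects were computed within a colony. The mean of the Mmu16 genes lay nearer to the other genotype in 4 of 88 arrays, and Y-linked genes went against the sex label in 16 of 88. All of these arrays were kept under their labels. Most markers of 3 forebrain neuron classes were bright in every group. At or above the median probe set of the group were 13 of 13 cortical excitatory neuron markers in each group. So were 12 to 13 of 14 interneuron markers and 11 to 12 of 12 striatal neuron markers. Intermediate progenitor markers at that level were 5, 5, 3 and 2 of 6 in EupTs65Dn, Ts65Dn, EupTs66Yah and Ts66Yah. Diencephalon markers were 4, 4, 3 and 3 of 7 in that order. Neurod6, a transcription factor of cortical excitatory neurons, had means of 11.04 ± 0.081, 10.98 ± 0.14, 11.36 ± 0.26 and 11.29 ± 0.24 in EupTs65Dn, Ts65Dn, EupTs66Yah and Ts66Yah (log2 signal ± SD). Of 8 measured midbrain and hindbrain markers, 0 had a group mean at or above the median probe set of the group (5.31) in EupTs65Dn or Ts65Dn, against 4 in EupTs66Yah (median probe set 6.32) and 4 in Ts66Yah (6.38). The mean level of these markers ran from 3.08 to 3.60 in EupTs65Dn, 3.03 to 3.76 in Ts65Dn, 5.12 to 6.75 in EupTs66Yah and 4.61 to 6.82 in Ts66Yah. Hoxa2, a patterning gene of the hindbrain, ran from 2.93 to 4.57 (median 3.60) in EupTs65Dn and 3.05 to 4.70 (median 3.72) in Ts65Dn, and from 4.04 to 7.96 (median 6.74) in EupTs66Yah and 4.55 to 7.74 (median 7.02) in Ts66Yah. The median over embryos of the mean of these 8 markers was 2.69 higher in EupTs66Yah than in EupTs65Dn and 2.78 higher in Ts66Yah than in Ts65Dn, while the same gap was 0.614 to 1.43 in the other 32 gene lists used here. Their part in the difference of effects was not tested.

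The difference of effects passed an adjusted p of 0.10 (limma, Benjamini-Hochberg over all probe sets) in 33 of 22206 probe sets, or 0.149%. It was positive in 30 of these (0.135%) and negative in 3 (0.0135%), and at an unadjusted p under 0.05 there were 1585 probe sets, or 7.14%. Of the 33, 22 were named genes of the triplicated Mmu17 segment, 0 were genes of the Mmu16 segment and 11 lay outside both lists. The count depended on the array that was left out: with all 89 arrays 2 probe sets passed, both in the Mmu17 segment. With the 6 litters of each colony as the units, each given by its trisomic minus euploid mean, 1 passed.

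**Figure D1:**
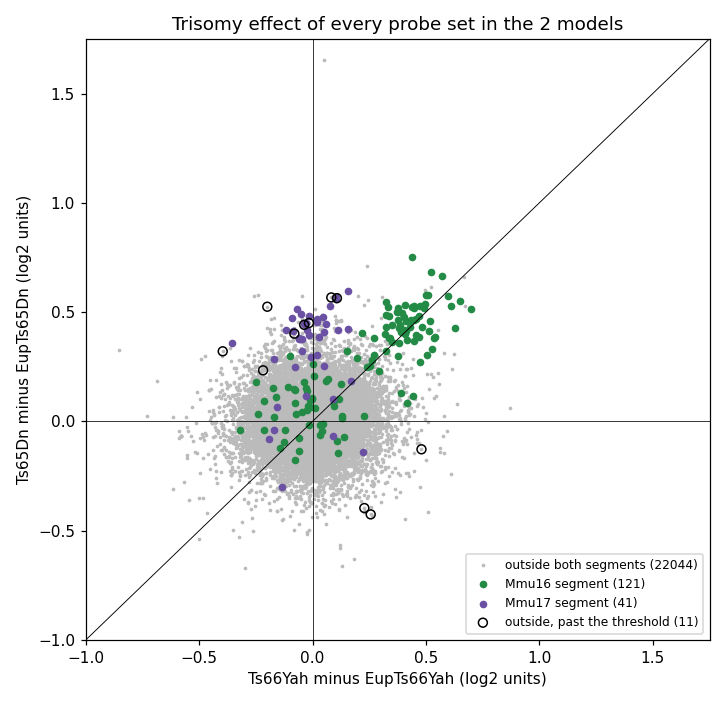
Trisomy effect of each of the 22206 probe sets in Ts66Yah (x axis) and in Ts65Dn (y axis), in log2 units, with the diagonal of equal effects. Green points are the 121 Mmu16 segment genes, purple points the 41 Mmu17 segment genes, and circles the 11 probe sets outside both lists that passed the threshold. The Mmu16 genes lie along the diagonal, and most Mmu17 genes lie near 0 on the x axis and between 0.3 and 0.6 on the y axis.

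Genes of the Mmu17 segment were higher in trisomic than in euploid embryos in Ts65Dn and not in Ts66Yah. The segment list held 41 named genes, from the start of the chromosome through 1700010I14Rik in the gene order of the mouse reference. The difference of effects was positive in 38 of 41 and passed in 22 (53.7%, against 0.149% of all probe sets), all 22 of them positive. Signal split the list: 27 members were at or above the median signal of 5.87, and all 22 that passed were among them. Over these 27 the median difference of effects was 0.44 (quartiles 0.39 and 0.48), against -0.032 over the 11103 probe sets of that brightness. The 14 dimmer members had a median of 0.14, and 0 of them passed. Within each colony, 26 of the 41 genes passed in Ts65Dn, all of them higher in trisomic embryos, and 0 of the 41 in Ts66Yah. Over the whole array the share that passed was 0.554% in Ts65Dn, made up of 0.509% higher and 0.045% lower, and 1.25% in Ts66Yah, made up of 0.995% and 0.252%. At an unadjusted p under 0.05 there were 29 of the 41 in Ts65Dn, against 6.05% of all probe sets, and 4 in Ts66Yah (9.76%), against 12%.

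The mean of the 27 brighter Mmu17 genes was taken in each embryo. In EupTs65Dn it ran from 7.89 to 8.18 (median 8.11), and in Ts65Dn from 8.14 to 8.63 (median 8.55). In EupTs66Yah it ran from 8.93 to 9.08 (median 9.02), and in Ts66Yah from 8.91 to 9.11 (median 9.02). Of the 23 Ts65Dn embryos, 22 lay above every euploid embryo of their colony, and the exception was the embryo labelled replicate 18, at 8.14, whose Mmu16 mean was also at the euploid level. The Ts66Yah and EupTs66Yah embryos covered nearly the same range, and 3 of 24 Ts66Yah embryos were above every euploid embryo. The trisomy effect was 0.44 (SE 0.026) in Ts65Dn, a 1.35-fold change, and 0.0045 (SE 0.014) in Ts66Yah, a 1.00-fold change. The difference of effects was 0.43 (SE 0.029, 95% interval 0.38 to 0.49). In whole tissue, more RNA per cell and more cells of an expressing type cannot be told apart.

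**Figure D2:**
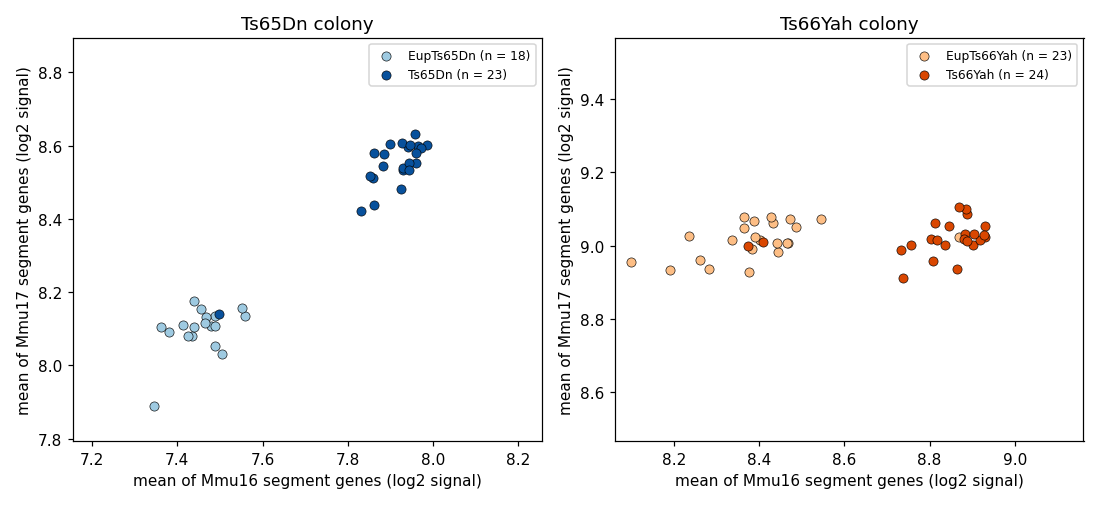
Mean log2 signal of the 60 brighter Mmu16 genes (x axis) and of the 27 brighter Mmu17 genes (y axis) in each embryo, with 1 point per embryo and 1 panel per colony, each drawn over the same width and height. In the Ts65Dn colony the trisomic embryos are higher on both axes, except the embryo labelled Ts65Dn replicate 18. In the Ts66Yah colony the groups part along the x axis, with 3 embryos at the other genotype's Mmu16 level, and overlap on the y axis.

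The same pattern held within litters. Trisomic minus euploid littermates gave a mean over the 27 genes of 0.337 to 0.558 in the 6 Ts65Dn litters and of -0.050 to 0.037 in the 6 Ts66Yah litters, with no overlap. Gene by gene, all 6 Ts65Dn litters lay above all 6 Ts66Yah litters for 19 of the 41 segment genes, and for 19 of the 27 brighter ones. All 19 were among the 22 genes that passed, which were picked by the same difference in these arrays. Over all 22206 probe sets that happened in 45 (0.203%), and the opposite order in 16 (0.0721%), none of them a segment gene. The exceptions among the 22 were Dynlt1a, Ezr and Prr18.

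**Figure D3:**
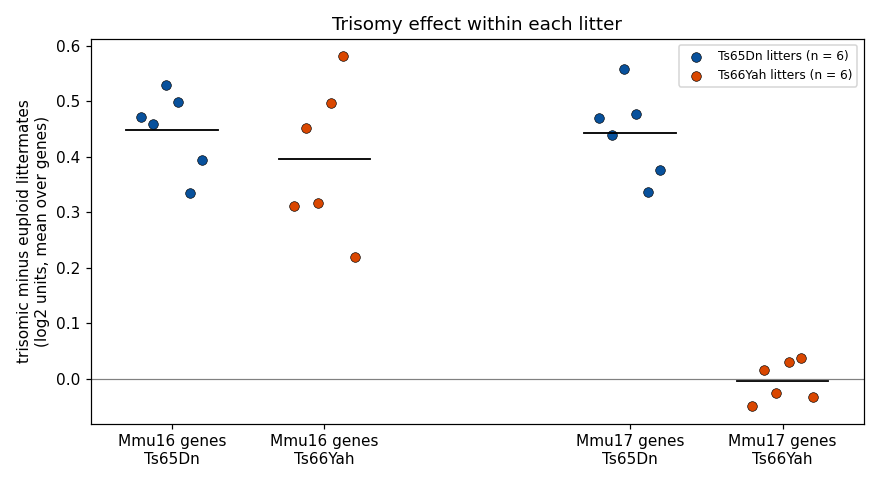
Trisomic minus euploid mean within each litter, in log2 units, averaged over the 60 brighter Mmu16 genes (left pair) and the 27 brighter Mmu17 genes (right pair); points are litters (6 per model) and lines their means. The Mmu16 values of the models overlap, at 0.334 to 0.529 and 0.219 to 0.581, and the Mmu17 values do not.

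Mpc1 and Pde10a had the smallest p-values. Mpc1 encodes a subunit of the carrier that brings pyruvate into mitochondria. Its log2 signal ran from 9.10 to 9.81 (median 9.53) in EupTs65Dn and from 9.72 to 10.26 (median 9.93) in Ts65Dn. It ran from 10.19 to 10.67 (median 10.48) in EupTs66Yah and from 10.29 to 10.63 (median 10.46) in Ts66Yah. In the Ts65Dn colony 18 of 23 trisomic embryos lay above every euploid embryo, while the groups of the Ts66Yah colony covered the same range. Trisomic embryos had 1.34-fold the euploid level in Ts65Dn and 0.983-fold in Ts66Yah, a difference of effects of 0.44 (SE 0.061, adjusted p = 2.32e-06).

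Pde10a encodes a phosphodiesterase that breaks down cyclic AMP and cyclic GMP and is abundant in striatal medium spiny neurons. Its signal ran from 8.07 to 8.87 (median 8.54) in EupTs65Dn and from 8.69 to 9.31 (median 9.01) in Ts65Dn, and 20 of 23 trisomic embryos were above every euploid embryo. In EupTs66Yah it ran from 9.06 to 9.89 (median 9.59) and in Ts66Yah from 8.99 to 9.75 (median 9.53), with no trisomic embryo above the euploid range. The fold was 1.39 in Ts65Dn and 0.939 in Ts66Yah, and the difference of effects was 0.56 (SE 0.078, adjusted p = 2.32e-06). Its trisomy effect ran from 0.37 to 0.54 in the Ts65Dn litters and from -0.31 to -0.016 in the Ts66Yah litters. Pde10a kept its call in all 28 other settings tried, including the full set of 89 arrays (adjusted p = 0.00196) and the litters as units (adjusted p = 0.0701). Of the other 21 genes, Cep43 kept its call with all 89 arrays (adjusted p = 0.0646), and none of them did with the litters as units.

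**Figure D4:**
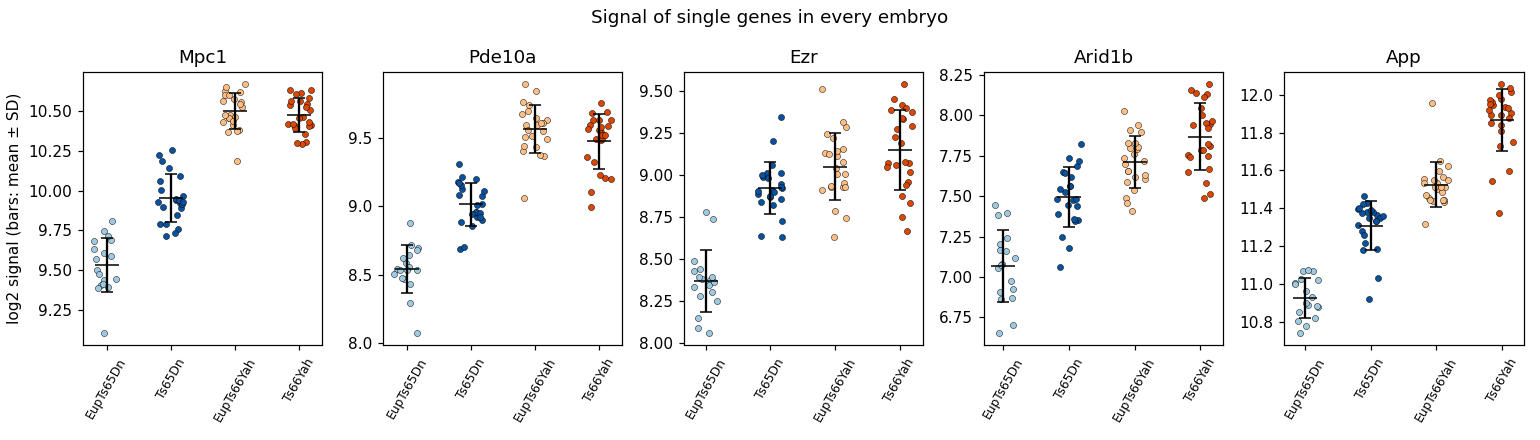
Log2 signal of Mpc1, Pde10a, Ezr, Arid1b and App in each embryo by group, with bars for the mean ± SD of 18, 23, 23 and 24 embryos. For the 4 Mmu17 genes most trisomic embryos are above the euploid ones in the Ts65Dn colony, and the groups of the Ts66Yah colony overlap widely. For App, on Mmu16, the trisomic mean is higher in both colonies.

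Both genes have start regions rich in CG dinucleotides, a feature common among broadly expressed genes. Nox3, an NADPH oxidase of the inner ear, is a dim member of the segment whose trisomy effect was -0.066 in Ts65Dn and 0.090 in Ts66Yah, with a difference of effects of -0.16 (SE 0.17, adjusted p = 0.887). The start regions of all 3 are printed to show that contrast, from 250 bases before the start of the gene to 50 after it. They were read from RefSeq on build GRCm38.p6, lie at chr17:8283537-8283836 on the plus strand (Mpc1), chr17:8801495-8801794 on the plus strand (Pde10a) and chr17:3696212-3696511 on the minus strand (Nox3), and have every CG in capitals.
Mpc1: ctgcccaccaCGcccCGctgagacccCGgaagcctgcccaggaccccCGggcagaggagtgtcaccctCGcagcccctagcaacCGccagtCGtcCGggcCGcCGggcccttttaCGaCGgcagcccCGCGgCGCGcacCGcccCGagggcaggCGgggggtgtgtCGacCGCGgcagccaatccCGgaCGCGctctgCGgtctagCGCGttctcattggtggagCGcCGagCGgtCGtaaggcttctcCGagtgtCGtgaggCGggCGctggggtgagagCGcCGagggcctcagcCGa
Pde10a: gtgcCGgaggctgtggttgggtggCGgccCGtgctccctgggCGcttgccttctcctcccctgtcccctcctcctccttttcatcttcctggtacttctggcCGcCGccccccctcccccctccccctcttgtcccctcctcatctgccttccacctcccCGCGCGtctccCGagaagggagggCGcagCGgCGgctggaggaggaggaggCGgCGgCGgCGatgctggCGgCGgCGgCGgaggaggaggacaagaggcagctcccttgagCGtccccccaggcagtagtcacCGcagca
Nox3: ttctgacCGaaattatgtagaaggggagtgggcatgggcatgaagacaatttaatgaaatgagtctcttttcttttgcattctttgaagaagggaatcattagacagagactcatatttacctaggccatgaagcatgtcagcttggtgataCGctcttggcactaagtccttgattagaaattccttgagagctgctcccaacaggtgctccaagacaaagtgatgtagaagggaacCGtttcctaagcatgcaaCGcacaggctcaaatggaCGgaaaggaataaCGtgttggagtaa
The Mpc1 region holds 39 CG, that of Pde10a 23 and that of Nox3 6. A region could be matched for 33 of the 41 segment genes, and the first listed start of each gene was counted. The count of a gene with several listed starts depends on that choice. The median was 23 CG in the 19 matched genes that passed and 6 in the 14 that did not, against 7 over the 27025 regions of the table. At least 10 CG were found in 16 of the 19 (84.2%) and in 3 of the 14 (21.4%), against 43.9% of all regions. All 19 were at or above the median signal, and of the 14 only Arid1b and Rsph3b were, with 42 and 25 CG. The contrast is therefore close to one of brighter against dimmer genes, and CG cannot be read apart from signal here. The letters CG were searched for as written, which reads the same on both strands, and the count is a description of the start regions.

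Other genes of the segment that act in mitochondria also passed. Serac1, needed for the remodelling of phosphatidylglycerol, had a fold of 1.33 in Ts65Dn and 0.942 in Ts66Yah (difference of effects 0.50, SE 0.11, adjusted p = 0.0109). Tfb1m, which methylates the small mitochondrial ribosomal RNA, ran from 5.71 to 6.97 (median 6.45) in EupTs65Dn and from 6.58 to 7.27 (median 7.06) in Ts65Dn, and from 6.59 to 7.91 (median 7.14) and 6.95 to 7.72 (median 7.30) in the euploid and trisomic embryos of the other colony. Its fold was 1.51, the largest among the 22 genes, in Ts65Dn, and it was 1.12 in Ts66Yah. Its difference of effects, 0.44 (SE 0.11, adjusted p = 0.0882), was close to the threshold. Tmem242, an inner membrane protein of mitochondria, differed by 0.48 (SE 0.088, adjusted p = 0.000858).

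Genes of transcription and RNA processing included Scaf8 and Gtf2h5. Scaf8 encodes a protein that binds the tail of RNA polymerase II and acts in transcript termination. It ran from 7.77 to 8.26 (median 8.04) in EupTs65Dn, from 8.03 to 8.78 (median 8.49) in Ts65Dn, from 8.77 to 9.40 (median 9.21) in EupTs66Yah and from 8.79 to 9.43 (median 9.15) in Ts66Yah. In Ts65Dn 21 of 23 embryos lay above every euploid embryo, and in the other colony the groups overlapped. The difference of effects was 0.49 (SE 0.073, adjusted p = 8.72e-06). Gtf2h5, the smallest subunit of the repair and transcription factor TFIIH, rose 1.40-fold in Ts65Dn against 0.988-fold in Ts66Yah (difference 0.50, SE 0.074, adjusted p = 6.48e-06).

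Arid1b, a subunit of the BAF chromatin remodelling complex, did not pass. Its signal ran from 6.65 to 7.45 (median 7.08) in EupTs65Dn and 7.06 to 7.82 (median 7.49) in Ts65Dn, and from 7.41 to 8.03 (median 7.72) in EupTs66Yah and 7.49 to 8.19 (median 7.87) in Ts66Yah. In both colonies the groups overlapped, with the trisomic median above the euploid one. The trisomy effect was 0.42 in Ts65Dn (adjusted p = 4.97e-07) and 0.16 in Ts66Yah (adjusted p = 0.226). For the difference between the models, Arid1b had 0.27 (95% interval 0.10 to 0.43, p = 0.00204, adjusted p = 0.395), the smallest of the 27 brighter genes.

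Several genes of the segment shape the cytoskeleton. Ezr encodes ezrin, which links actin to the cell membrane. It ran from 8.06 to 8.78 (median 8.37) in EupTs65Dn and 8.63 to 9.34 (median 8.91) in Ts65Dn, where 20 of 23 trisomic embryos were above all controls, and from 8.63 to 9.51 (median 9.04) in EupTs66Yah and 8.66 to 9.54 (median 9.13) in Ts66Yah. The fold was 1.47 and 1.07 (difference 0.46, SE 0.086, adjusted p = 0.00117). Tiam2, an activator of the small GTPase Rac, differed by 0.54 (SE 0.10, adjusted p = 0.000908), Cep43, a protein of centrosomes and cilia, by 0.53 (SE 0.077, adjusted p = 3.84e-06), and Rsph3a, a radial spoke protein, by 0.43 (SE 0.092, adjusted p = 0.0108). Rsph3b, a close relative of Rsph3a, did not pass (0.30, SE 0.12, adjusted p = 0.566).

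The Dynlt1 copies encode a light chain of the dynein motor. Dynlt1a, Dynlt1b, Dynlt1c and Dynlt1f are close copies, so which copy a probe set measures is uncertain. All 4 passed, with differences of effects of 0.29 (SE 0.058), 0.43 (SE 0.071), 0.36 (SE 0.067) and 0.36 (SE 0.065) in that order. The fold in Ts65Dn was 1.24 to 1.37, and in Ts66Yah 1.01 to 1.03. Dynlt1a had the smallest difference among the 22 genes that passed.

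Membrane trafficking genes followed. Sft2d1, a protein of Golgi transport, had the largest difference of effects of the 22, 0.58 (SE 0.085, adjusted p = 5.46e-06), with a fold of 1.43 in Ts65Dn and 0.953 in Ts66Yah. In Ts65Dn 22 of 23 embryos were above every euploid embryo, and the remaining 1 was below every euploid embryo. Zdhhc14, a protein palmitoyltransferase, differed by 0.45 (SE 0.096, adjusted p = 0.0109). Snx9, a sorting nexin of endocytosis, rose 1.33-fold in Ts65Dn (adjusted p = 0.00989) against 1.08-fold in Ts66Yah, but the difference of effects, 0.30 (95% interval 0.047 to 0.56, adjusted p = 0.622), did not pass. Tmem181a passed at 0.44 (SE 0.10, adjusted p = 0.0549), while the related Tmem181b-ps and Tmem181c-ps had like values that did not pass, 0.42 (SE 0.12, adjusted p = 0.261) and 0.44 (SE 0.15, adjusted p = 0.434). Once litter was fitted as a block, Tmem181b-ps passed, at 0.45 (adjusted p = 0.078). These 3 resemble each other in sequence, and their probe sets are uncertain in the same way as those of Dynlt1.

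The rest of the 22 were Rnaset2a, an RNase of the lysosome (0.47, SE 0.082, adjusted p = 0.000465), Tulp4, a member of the tubby-like family (0.41, SE 0.089, adjusted p = 0.0125), Tagap1, named for a GTPase-activating domain (0.37, SE 0.082, adjusted p = 0.023), and Prr18 (0.45, SE 0.11, adjusted p = 0.0717). Prr18 did not pass once litter was fitted as a block (adjusted p = 0.12), and the other 21 did. Rnaset2a had a mean log2 signal of 8.14 ± 0.15 (SD) in EupTs65Dn and 8.71 ± 0.21 in Ts65Dn, where 22 of 23 trisomic embryos were above all controls, and of 9.14 ± 0.17 in EupTs66Yah and 9.24 ± 0.21 in Ts66Yah. In Ts66Yah the trisomic minus euploid difference was above 0 in all 6 litters, from 0.0051 to 0.19, with a fold of 1.07 that did not pass (adjusted p = 0.468). The gene has a close copy in the segment, Rnaset2b, which was not among the named probe sets. Their start regions share a run of 255 bases with 99.61% identity on GRCm38.p6, shown at chr17:8147783-8148037 on the minus strand (Rnaset2a) and chr17:6978655-6978909 on the plus strand (Rnaset2b), with the 1 differing base in capitals.
Rnaset2a: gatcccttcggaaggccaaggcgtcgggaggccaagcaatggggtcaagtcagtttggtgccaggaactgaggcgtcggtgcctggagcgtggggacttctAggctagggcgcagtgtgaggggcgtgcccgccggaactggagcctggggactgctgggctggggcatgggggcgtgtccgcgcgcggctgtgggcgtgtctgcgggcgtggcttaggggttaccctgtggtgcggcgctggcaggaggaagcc
Rnaset2b: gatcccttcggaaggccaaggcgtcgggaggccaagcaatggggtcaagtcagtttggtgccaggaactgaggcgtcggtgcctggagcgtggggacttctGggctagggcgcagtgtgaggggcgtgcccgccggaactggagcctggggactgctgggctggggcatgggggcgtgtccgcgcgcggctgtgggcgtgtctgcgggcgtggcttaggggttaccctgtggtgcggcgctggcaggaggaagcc
A signal assigned to Rnaset2a may therefore hold transcripts of both copies. The Rnaset2a start shown here, picked for the longest shared run, is not the one counted for CG above, which held 4.

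The 14 dim members included genes known from other tissues. Fndc1, a fibronectin domain protein, was the 1 dim gene that rose in Ts65Dn (1.36-fold, adjusted p = 0.00973), and its difference of effects did not pass (0.39, SE 0.14, adjusted p = 0.515). Cldn20, a claudin, had the highest difference of effects of the 41, 0.71 (95% interval 0.22 to 1.21, adjusted p = 0.484). Its levels ran from 2.80 to 4.86 (median 3.97) in EupTs65Dn, 2.82 to 4.88 (median 4.31) in Ts65Dn, 3.46 to 6.62 (median 5.62) in EupTs66Yah and 3.47 to 6.50 (median 5.35) in Ts66Yah, and the groups of each colony covered each other. Ccr6, a chemokine receptor of immune cells, had a difference of 0.22 (-0.11 to 0.56), and Unc93a2 of 0.45 (0.027 to 0.88). Synj2, a phosphoinositide phosphatase, had effects of 0.18 in Ts65Dn and 0.17 in Ts66Yah, a difference of 0.016 (-0.35 to 0.38). The 3 negative differences were those of Nox3, T2 (-0.16, interval -0.69 to 0.37) and Sytl3 (-0.36, interval -0.78 to 0.055). The others were Ldhal6b at 0.33, 1700010I14Rik at 0.20, Tagap, a close relative of Tagap1, at 0.15, Tcp10a at 0.13, Ttll2 at 0.11 and LOC547349 at 0.013. For 6 of the 14 the interval held both 0 and the 0.44 of the brighter genes.

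Beyond the end of the segment list no gene passed. The last named gene inside it, 1700010I14Rik, was dim (0.20, SE 0.15, adjusted p = 0.823), and Pde10a was the last bright one. Of the next 20 named genes along Mmu17, 0 passed and the median difference of effects was 0.031. The first 6 beyond the end were Pabpc6 (0.29, SE 0.16), Qk (-0.058, SE 0.051), Agpat4 (-0.014, SE 0.099), Map3k4 (0.069, SE 0.092), Plg (0.047, SE 0.17) and Slc22a2 (-0.056, SE 0.23). Qk, an RNA-binding protein of glia, was bright, with a fold of 0.966 in Ts65Dn and 1.01 in Ts66Yah. Over all 923 named Mmu17 genes beyond the segment, 0 passed and the median was -0.011. Of all named probe sets outside both lists, 0.0361% passed. The counts of 0 are near that share and do not by themselves locate an end of the effect.

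**Figure D5:**
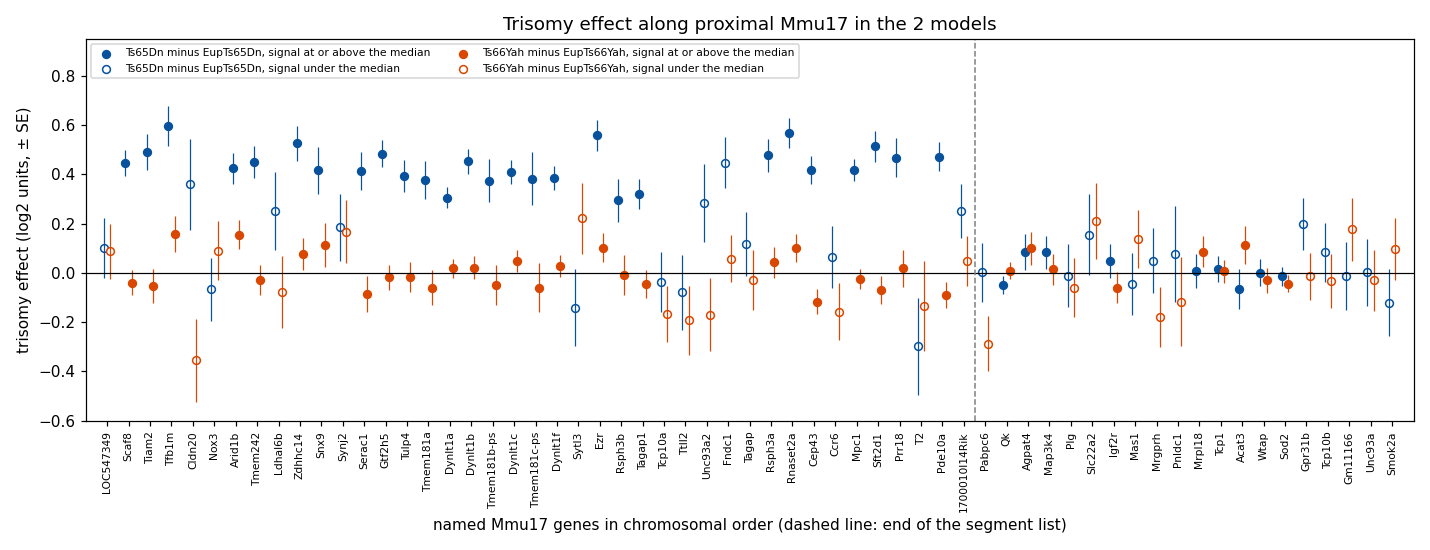
Trisomy effect (log2 units, ± SE) of the 41 named Mmu17 segment genes and the next 20 genes in chromosomal order, in Ts65Dn (blue) and in Ts66Yah (orange); open points are genes under the median signal and the dashed line is the end of the segment list. Left of the line, effects of bright genes run from 0.29 to 0.60 in Ts65Dn and, for Ts66Yah, from -0.12 to 0.16, and right of the line both series lie around 0.

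Among the Mmu16 genes that both models carry in an extra copy, the brighter ones mostly rose in both, and no difference between the models passed. Of 121 named genes from Mrpl39 to the end of the chromosome, 0 passed in the difference of effects. At an unadjusted p under 0.05 there were 4 (3.31%), below the 7.14% of all probe sets. Among the 60 brighter genes the median difference was 0.030 (range -0.20 to 0.22), with a median trisomy effect of 0.44 in Ts65Dn and 0.41 in Ts66Yah. In each colony on its own, 55 of 121 passed in Ts65Dn and 58 in Ts66Yah, all higher in trisomic embryos. Signal split these counts, with 54 and 56 of the 60 brighter genes and 1 and 2 of the 61 dimmer ones. The dimmer genes had a median effect of 0.092 in Ts65Dn and -0.00059 in Ts66Yah, and 16 and 31 of them were below 0. The mean of the 60 genes had an effect of 0.45 (SE 0.025) in Ts65Dn and 0.42 (SE 0.042) in Ts66Yah. The difference was 0.026 (SE 0.049, 95% interval -0.070 to 0.12), and it was -0.016 without the 4 arrays at the other genotype's level. Of these 4 arrays, 3 belong to the Ts66Yah colony.

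App, the amyloid precursor, ran from 10.74 to 11.07 (median 10.91) in EupTs65Dn and 10.92 to 11.46 (median 11.35) in Ts65Dn, and from 11.32 to 11.96 (median 11.51) in EupTs66Yah and 11.38 to 12.06 (median 11.91) in Ts66Yah. The values 10.92, 11.96 and 11.38 came from Ts65Dn replicate 18, EupTs66Yah replicate 24 and Ts66Yah replicate 13. All of these are arrays at the other genotype's Mmu16 level. The trisomic mean was higher in both colonies, 1.30-fold and 1.27-fold, and the difference of effects was 0.041 (95% interval -0.078 to 0.16). For the kinase Dyrk1a the folds were 1.32 and 1.33 (difference -0.0077, SE 0.068), and for the calcineurin inhibitor Rcan1 1.44 and 1.36 (difference 0.082, SE 0.095). Dscam, an adhesion molecule of neuronal wiring, had 1.39 and 1.32 (difference 0.076, SE 0.077). Sod1, superoxide dismutase, leaned toward Ts65Dn at 1.40 and 1.26, a difference of 0.14 that did not pass (95% interval -0.0089 to 0.30, adjusted p = 0.727), and so did Ttc3, a ubiquitin ligase, at 0.096 (-0.017 to 0.21, adjusted p = 0.764). The oligodendrocyte lineage factors Olig1 and Olig2 differed by 0.033 (SE 0.097) and -0.063 (SE 0.098).

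The extremes among the brighter Mmu16 genes were small. The 3 highest differences were those of Urb1 (0.22, SE 0.15), Son (0.19, SE 0.088), a splicing cofactor, and Usp16 (0.19, SE 0.091), a histone deubiquitinase. The 3 lowest were those of the IL-10 receptor subunit Il10rb (-0.20, SE 0.15), the transcription factor Ets2 (-0.20, SE 0.13) and Cfap298 (-0.15, SE 0.12), with adjusted p from 0.657 to 0.842 over the 6. Before the segment, 0 of the 20 nearest named genes passed (against 0.0361% of all named probe sets outside both lists), with a median of -0.029. The first 6 were Ncam2 (-0.12, SE 0.077), Tmprss15 (0.10, SE 0.13), Chodl (-0.23, SE 0.13), D16Ertd472e (-0.11, SE 0.11), Cxadr (0.11, SE 0.064) and Usp25 (-0.079, SE 0.064). Chodl rose in Ts66Yah (1.26-fold, adjusted p = 0.0579), where 11 of 24 embryos were above every euploid embryo, and its fold in Ts65Dn was 1.07.

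Some families have a member on each segment. Tiam1 (Mmu16) had folds of 1.35 in Ts65Dn and 1.25 in Ts66Yah, and Tiam2 (Mmu17) of 1.40 and 0.965. Scaf4 (Mmu16) had 1.28 and 1.27, and Scaf8 (Mmu17) 1.36 and 0.973. Synj1 (Mmu16) had 1.38 and 1.37, and the dim Synj2 (Mmu17) 1.14 and 1.12. In Ts65Dn both members of the first 2 pairs rose, and in Ts66Yah the Mmu16 member passed and the Mmu17 member did not (adjusted p = 0.000619 for Tiam1 and 4.36e-05 for Scaf4, against 0.808 for Tiam2 and 0.801 for Scaf8).

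Outside both lists the difference of effects passed in 11 of 22044 probe sets (0.0499%), 8 positive and 3 negative. The count was 7 with the litter as a block, and it was 7 with the probe sets under the median signal left out. Leaving out 1 litter at a time gave 7 (without the litter of dam WT15) to 16 (without that of dam WT13). Of the 8, 4 were probe sets without a symbol in the platform annotation: TC1700001385.mm.2, TC1700000069.mm.2 and TC1700000070.mm.2, whose identifiers carry chromosome 17, and TC1100002595.mm.2, whose identifier carries chromosome 11. Among named probe sets with a known chromosome, 19461 of 19463 lay on the chromosome their identifier carries. By identifier number, TC1700000069.mm.2 and TC1700000070.mm.2 fall between Dynlt1c and Rsph3a, which are Mmu17 segment genes. TC1700001385.mm.2 falls between Dynlt1a and Dynlt1f, also of that segment. Unnamed probe sets were counted outside because the segment lists hold named genes only, and their positions were not looked up. The 4 unnamed probe sets were bright and their differences were 0.47 (SE 0.077), 0.46 (SE 0.082), 0.48 (SE 0.09) and 0.48 (SE 0.09). Their folds in Ts65Dn were 1.37, 1.48, 1.48 and 1.36, all within the 1.24 to 1.51 of the 22 segment genes, and in Ts66Yah they were 0.989, 1.08, 1.06 and 0.975. Each kept its call in 26 of 28 other settings.

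Among named genes, 4 were higher and 3 lower. Baz1a, a subunit of chromatin assembly complexes, had a mean log2 signal of 5.27 ± 0.38 (SD) in EupTs65Dn, 5.67 ± 0.25 in Ts65Dn, 6.39 ± 0.27 in EupTs66Yah and 6.31 ± 0.22 in Ts66Yah. The groups of each colony overlapped, with the trisomic mean higher in the first colony and lower in the second. The effect was 0.40 in Ts65Dn (adjusted p = 0.00429) and -0.080 in Ts66Yah (adjusted p = 0.738), a difference of 0.48 (SE 0.12, adjusted p = 0.0858). Speer4f1 (0.72, SE 0.17, adjusted p = 0.0557), the olfactory receptor Olfr782 (0.72, SE 0.17, adjusted p = 0.0557) and Dnaaf6b, of a family that assembles ciliary dynein (0.45, SE 0.11, adjusted p = 0.0717), were dim, with mean signals under 4. The call was lost in 16 of 28 other settings for Baz1a, 19 of 26 for Dnaaf6b, 14 of 26 for Olfr782 and 12 of 26 for Speer4f1. Once litter was fitted as a block, Baz1a (adjusted p = 0.16), Olfr782 (0.16) and Dnaaf6b (0.234) did not pass.

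The lower genes were Ostn, Map3k11 and Hapln4. Ostn encodes osteocrin, a secreted peptide of bone and muscle. It ran from 2.11 to 3.39 (median 2.74) in EupTs65Dn, 1.97 to 2.80 (median 2.29) in Ts65Dn, 3.31 to 4.34 (median 3.81) in EupTs66Yah and 3.24 to 4.72 (median 4.02) in Ts66Yah. It fell in Ts65Dn (0.760-fold, adjusted p = 0.0444), and its fold in Ts66Yah was 1.17 (adjusted p = 0.304). The difference of effects was -0.62 (SE 0.14, adjusted p = 0.023), which did not pass once litter was fitted as a block (adjusted p = 0.105). Ostn lies on Mmu16 before the segment and was the 1 of 495 named genes there that passed. Map3k11, a kinase upstream of JNK, differed by -0.68 (SE 0.17, adjusted p = 0.0717), though it passed in neither colony alone. Hapln4, a link protein of perineuronal matrix, rose in Ts66Yah (1.39-fold, adjusted p = 0.00452) and had a fold of 0.915 in Ts65Dn, a difference of -0.61 (SE 0.15, adjusted p = 0.0882). These 3 were also under the median signal, and the call was lost in 5 of 26 settings for Ostn, 13 of 27 for Map3k11 and 14 of 27 for Hapln4.

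The nearest named genes that did not pass were Poli (-0.51, SE 0.13, adjusted p = 0.118), Heyl (-0.64, SE 0.16, adjusted p = 0.123), Fstl4 (-0.56, SE 0.15, adjusted p = 0.176), Pla2g4c (-0.81, SE 0.22, adjusted p = 0.196) and Fgf15 (-0.57, SE 0.15, adjusted p = 0.211) on the negative side. On the positive side they were Olfr402 (0.47, SE 0.12, adjusted p = 0.123), Fpr-rs3 (0.58, SE 0.15, adjusted p = 0.149), Pik3c2a (0.31, SE 0.083, adjusted p = 0.176), Olfr895 (0.52, SE 0.14, adjusted p = 0.235) and Ankrd12 (0.16, SE 0.046, adjusted p = 0.24). Heyl, a Notch target, and Fgf15, a growth factor of the ventral forebrain and midline, each had a negative effect in Ts65Dn (-0.41 and -0.17) and a positive one in Ts66Yah (0.23 and 0.40).

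Genes called in 1 colony were then read in the other, which shares no arrays with it. Both effects came from a single fit with a shared estimate of spread for each probe set. Passing in both colonies is therefore not an independent reading. The segment lists hold named genes only, so an unnamed probe set of a segment counts as outside here. Outside the segments in this sense, 32 probe sets (21 named) rose in Ts65Dn. Their median effect was 0.41 there and 0.092 in Ts66Yah, where 25 of 32 were above 0 and 7 also passed (21.9% of the 32, and 4.29% of the 163 that rose in Ts66Yah). Over the 22044 probe sets outside the segments, 51.5% were above 0 in Ts66Yah and 0.739% rose there. The 163 that rose in Ts66Yah had a median effect of 0.29 there and 0.064 in Ts65Dn, where 119 were above 0, against 48.7% of those outside the segments. The Ts66Yah calls depended on single litters, with 277 over all probe sets, 90 without the litter of dam WT18 and 529 without that of dam WT13. Of those that fell, 2 were shared, which is 20% of 10 in Ts65Dn and 3.57% of 56 in Ts66Yah, against 0.254% of those outside the segments that fell in Ts66Yah. The shared genes were Idh2, the mitochondrial isocitrate dehydrogenase, with folds of 1.21 and 1.19, Ifitm2, an interferon-induced membrane protein (1.25 and 1.23), Cdkl3 (1.26 and 1.15), Selenov (1.58 and 1.59), Antkmt (1.30 and 1.21), Pnck (1.19 and 1.15) and an unnamed probe set whose identifier carries chromosome 16, TC1600001019.mm.2 (1.51 and 1.41). Rbm3, a cold-inducible RNA-binding protein (0.848 and 0.867), and Pik3r3, a regulatory subunit of PI3 kinase (0.890 and 0.892), fell in both. None of these 9 passed in the difference of effects. The identifier number of TC1600001019.mm.2 falls between those of Son and Ttc3, both genes of the Mmu16 segment, so it may belong to that segment.

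Genes that work with a triplicated Mmu17 gene were read in 7 lists, together with striatal neuron markers because Pde10a is abundant there. In these 8 lists 0 members passed in the difference of effects, against 0.0499% of probe sets outside both segments. With so low a share, 0 calls in lists of this size does not tell whether the members respond. The median was -0.023 in 26 BAF subunits beside Arid1b, -0.027 in 15 ezrin relatives and partners, -0.043 in 18 genes of striatal cyclic AMP signalling beside Pde10a, and 0.011 in 19 dynein genes beside Dynlt1. It was -0.061 in 7 TFIIH subunits, -0.035 in 16 genes of mitochondrial pyruvate entry, -0.023 in 19 Rac activators and Rac genes, and -0.067 in 12 striatal neuron markers. Over all probe sets the median was -0.0060, and -0.032 over those at or above the median signal. These medians are small enough to change sign with the scaling of the arrays, and each of the 8 except striatal neuron markers was above 0 when arrays were centred and scaled to equal spread. The members with the smallest p were Brd7 (0.16, SE 0.08, adjusted p = 0.701), Podxl (-0.23, SE 0.12, adjusted p = 0.727), Prkar1b (-0.21, SE 0.07, adjusted p = 0.452), Dctn4 (-0.13, SE 0.066, adjusted p = 0.701), Ercc3 (-0.18, SE 0.12, adjusted p = 0.782), Pcx (-0.25, SE 0.12, adjusted p = 0.689), Arhgef7 (-0.11, SE 0.047, adjusted p = 0.588) and Ebf1 (-0.30, SE 0.095, adjusted p = 0.395).

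Of the other lists of cell types and pathways, 0 members passed either, which is again near the 0.0499% of probe sets outside both segments. As background for the sign counts, 51.8% of all probe sets and 63.2% of those at or above the median signal had a negative difference. The lowest median was that of 20 protocadherin beta genes, cell surface proteins of neuronal identity, at -0.18, with 18 of 20 negative and trisomy effects of -0.20 in Ts65Dn and 0.019 in Ts66Yah. The Hedgehog pathway followed at -0.16 with 10 of 13 negative, led by its inhibitor Hhip (-0.46, SE 0.13, adjusted p = 0.24). Hypoxia and glycolysis genes had -0.12 (20 of 21 negative, Bnip3 -0.22, SE 0.082, adjusted p = 0.516), astrocyte markers -0.11 (8 of 10 negative, Aqp4 -0.27, SE 0.15, adjusted p = 0.738), and cell cycle genes -0.10 (28 of 36 negative, Ccna2 -0.31, SE 0.091, adjusted p = 0.296). The 8 midbrain and hindbrain markers, whose level differed between the colonies by more than that of the other lists, had a median of -0.10, with 5 of 8 negative. Diencephalon markers were the highest, at 0.079, with 7 of 7 positive and Pomc at 0.50 (SE 0.20, adjusted p = 0.557). The medians of these 7 lists kept their sign in all settings tried, though that of hypoxia and glycolysis came to -0.0021 when arrays were scaled to equal spread, where the median of all probe sets was 0.050. Those of pericyte and meningeal markers (-0.094) and immediate early genes (-0.086) kept their sign too. In the other 18 lists the medians ran from -0.097 in 13 oligodendrocyte lineage markers to 0.050 in 3 erythroid markers. Oligodendrocyte lineage markers had median trisomy effects of 0.11 in Ts65Dn, where 0 passed (against 0.554% of all probe sets), and 0.21 in Ts66Yah, where 3 passed (against 1.25% of all probe sets, a share that moved with single litters as given above). The 46 orthologues of human chromosome 21 genes that lie outside both segments had a median difference of -0.028, with 17 positive and 29 negative.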

How the data were processed

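RNA of 1 forebrain per array was hybridised to Clariom S arrays. The values used are log2 signals per probe set that the authors deposited, made with RMA per the submitters' processing notes, with no version or settings stated there. A single limma 3.58.1 fit (R 4.3.3) of 88 arrays held a mean for each of the 4 genotype groups. It tested the difference of trisomy effects and each colony's own effect two-sided over 22206 probe sets, with Benjamini-Hochberg adjustment and a threshold of 0.10, the false discovery rate the series states. Of these probe sets, 19572 had 1 gene symbol in the platform annotation and 2634 had none. Segment membership followed the gene order of RefSeq on GRCm38.p6, and start regions came from the same build. Trisomy effects were computed within a colony. Levels of marker genes and gene lists were also set side by side between colonies, and genes were split into brighter and dimmer at the median signal. No depth applies to arrays, and the number of embryos limits the precision.

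The named genes were every segment gene past the threshold plus a fixed set in each segment, the 3 highest and 3 lowest brighter Mmu16 genes, the 6 nearest genes beyond each segment, all named genes past the threshold outside, 5 below it in each direction, and in each list the member of smallest p. The remaining dim Mmu17 genes and the genes called in both colonies were added after their values were seen. Members and lists were chosen with earlier results of these data known. Littermates share a dam: within-litter correlations of trisomic and euploid deviations ran from -0.208 to 0.345, above 0.1 in 8 of 12 litters, so a fit with the litter as a block was run as an alternative. The other alternatives changed the normalization, the low-signal filter, the variance model, the threshold, the arrays used and the unit of replication, added sex, or left out a litter. The scripts were checked on simulated data, and Python 3.11.15 with matplotlib 3.10.9 drew the figures.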

Additional observations from a re-analysis of the deposited data

Results flagged for a closer look

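All 33 probe sets that passed did so in a test of whether the trisomy effect differed between Ts65Dn and Ts66Yah, and their log2 differences (Ts65Dn minus Ts66Yah) follow. Among Mmu17 segment genes they were 0.442 for Mpc1, 0.563 for Pde10a, 0.535 for Cep43, 0.584 for Sft2d1, 0.501 for Gtf2h5, 0.485 for Scaf8, 0.465 for Rnaset2a and 0.479 for Tmem242. The dynein light chain copies had 0.287 (Dynlt1a), 0.431 (Dynlt1b), 0.362 (Dynlt1c) and 0.356 (Dynlt1f). Tiam2 had 0.542, Ezr 0.456, Rsph3a 0.434, Zdhhc14 0.449, Serac1 0.499, Tulp4 0.411, Tagap1 0.366, Tmem181a 0.437, Prr18 0.449 and Tfb1m 0.438.

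Outside the segment lists, the unnamed TC1700001385.mm.2, TC1700000069.mm.2, TC1700000070.mm.2 and TC1100002595.mm.2 had 0.466, 0.456, 0.485 and 0.479. Speer4f1 had 0.724, Olfr782 0.717, Dnaaf6b 0.452 and Baz1a 0.482. The negative differences were -0.625 for Ostn, -0.682 for Map3k11 and -0.608 for Hapln4. Of the 11 outside, the 3 unnamed probe sets whose identifiers carry chromosome 17 had effects in the range of the segment genes. So did TC1100002595.mm.2, whose identifier carries chromosome 11, and the named gene Baz1a. Effect size therefore does not set these 3 apart. The identifier numbers of the 3 fall between those of named Mmu17 segment genes, and their positions themselves were not looked up.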

How the results depend on the processing

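With all 89 arrays, 2 probe sets passed in the difference of effects, 2 of them in the Mmu17 segment and 0 outside the segments, 68 passed in Ts65Dn, and the difference of the Mmu17 mean was 0.324. With litters as the units 1 probe set passed, 1 in the Mmu17 segment and 0 outside. Outside the segments 7 passed with the litter as a block, after quantile normalization, with array weights, or without probe sets under the median signal, 17 passed with a separate fit for each colony, and 5 at a threshold of 0.05. In Ts66Yah 1202 passed when arrays were centred and scaled to equal spread, and 2 of these were Mmu17 segment genes, against 0 in the main fit. Among the settings chosen after seeing the data, 434 passed there without the 4 arrays at the other genotype's level and 77 without the 5 narrower arrays. The narrower arrays are the EupTs66Yah arrays with an SD under 2.3, the lowest SD of the Ts66Yah arrays, so the spread of the 2 groups was not equal. The causes were not tested. Leaving out 1 litter at a time gave 26 to 36 calls in all, 18 to 22 in the Mmu17 segment, 0 to 0 in the Mmu16 segment, 7 to 16 outside, 109 to 129 in Ts65Dn and 90 to 529 in Ts66Yah. The difference of the Mmu17 mean then ran from 0.410 to 0.455, and that of the Mmu16 mean from -0.0087 to 0.070. The difference of the Mmu16 mean, 0.026 with an interval that held 0, was below 0 with all 89 arrays (-0.075), without the 4 arrays at the other genotype's level (-0.016), without the arrays against their sex label (-0.019) and without the litter of dam WT19. No called value changed sign in the settings tried. The litter block ended the calls of Prr18, Ostn, Olfr782, Baz1a and Dnaaf6b, added that of Tmem181b-ps, and changed no other call of a named gene. By replicate number, no paired analysis was possible because the numbers follow accession order, and pairing was by litter instead. Background signal was not used here, so how far dim genes are limited by it was not measured.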
